A study of Mus musculus with 8 samples.

Results

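The response of microglia to Ecrg4(133-148) was measured against PBS on 4 of the 8 arrays of the series, 2 for each treatment, chosen by the treatment in their labels. Ecrg4(133-148) is a recombinant protein that joins residues 133 to 148 of Ecrg4 to an Fc, and it was given for 3 h at 20 µg/ml. Recombinant Fc without a fragment, the carrier control, was given at the same dose and time. PBS, a buffered salt solution, was given for the same 3 h and holds neither the fragment nor the carrier. The comparison with PBS is therefore the total effect of fragment plus carrier. All groups were primary microglia of C57BL/6 mice, and RNA was labelled and hybridised to one-colour Agilent arrays. The other 2 arrays held Fc-fused Ecrg4(71-132). Titles place 1 array of every treatment in set 1 and 1 in set 2, and differences were taken within a set. They do not say that the sets were separate cultures or animals, so a p-value here measures only the spread between these samples, which may be technical.

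Microglia are the resident macrophages of the brain. They sense microbial products and tissue damage through pattern and scavenger receptors. The transcription factor NF-kB, held in the cytoplasm by inhibitor proteins until a receptor signals, then switches on cytokines, chemokines and its own inhibitors within hours. Ecrg4 is a secreted or membrane-held precursor that is cut into shorter peptides.

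Levels are log2 signals with the 75th percentile of each array at 0, and a difference of 1 is 2-fold. Pairs of values are set 1, then set 2. The 4 groups had 24214 to 29439 probes well above background per array, and the 75th percentile of signal was 494.6 to 809.3. Across genes, the Ecrg4(133-148) and PBS arrays correlated at 0.9955 in set 1 and 0.9866 in set 2. The 2 Ecrg4(133-148) arrays correlated at 0.9623 with each other and the 2 PBS arrays at 0.9535, so an array was closer to the other treatment in its set than to its own duplicate. Microglial genes were bright in both groups: Csf1r, the receptor of the growth factor that keeps microglia alive, stood at 8.05 and 8.13 with Ecrg4(133-148), against 8.03 and 8.08 with PBS, and Trem2, a lipid-sensing receptor, at 7.08 and 7.42 with Ecrg4(133-148), against 7.09 and 7.54 with PBS. The defining markers Cx3cr1 and Tmem119 were lower in set 2. Cx3cr1, the fractalkine receptor, stood at 4.71 and -1.45 with Ecrg4(133-148), against 4.58 and -3.25 with PBS, and Tmem119 stood at -2.05 and -4.67 with Ecrg4(133-148), against -2.03 and -4.54 with PBS, where neither set 2 array was well above background.

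Cytokine and chemokine genes such as Il1b, Tnf and Cxcl2 were higher with Ecrg4(133-148) than with PBS in both sets. Genes such as Clu, Cpe and Timp3 were lower in set 1 and higher in set 2. Of 19120 genes tested, 25 were over 2-fold higher in both sets (0.131% of genes), 41 were over 2-fold lower in both (0.214%), and 44 went over 2-fold opposite ways (0.23%). With the arrays scaled to their medians the first 2 counts were 40 and 33. No gene passed the test (limma with the set as a block, Benjamini-Hochberg adjusted p under 0.05: 0% of genes), and 1749 had an unadjusted p under 0.05, or 186 without the block. With 2 arrays against 2, an exact permutation test of a single gene that ignores the sets cannot give a two-sided p below 0.333. A permutation within the pairs has fewer arrangements and so a higher limit. The bulk RNA cannot tell a change in the number of cells of a type from a change in RNA per cell.

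**Figure D1:**
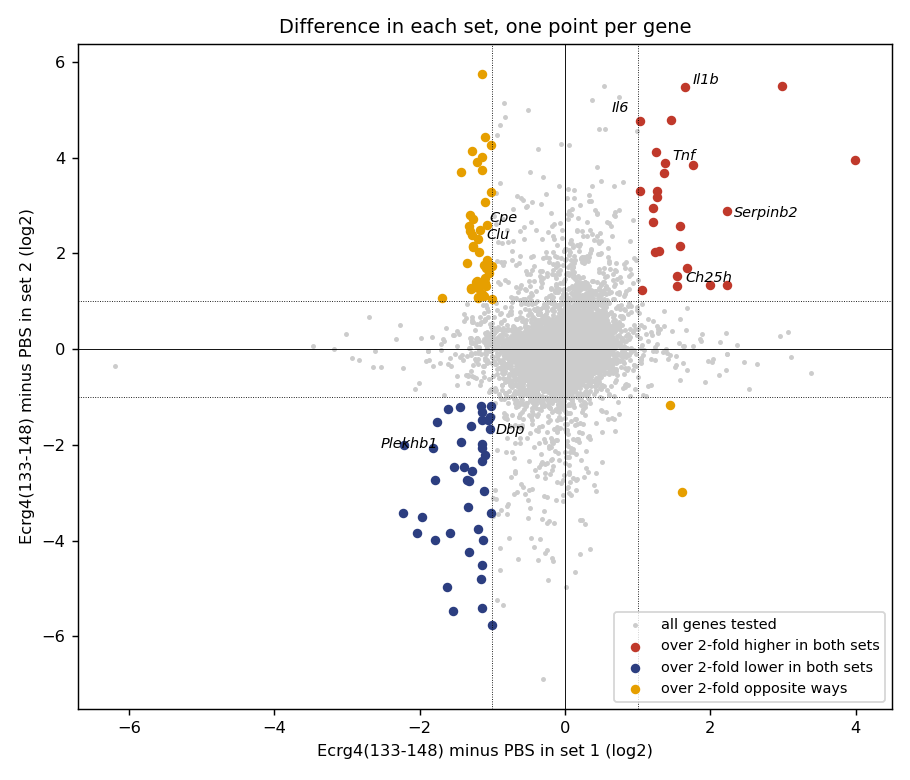
Each point is a gene, with the difference Ecrg4(133-148) minus PBS (log2) in set 1 on the horizontal axis and in set 2 on the vertical axis, and dotted lines mark 2-fold. The 25 red genes lie over 2-fold higher in both sets, the 41 blue genes over 2-fold lower in both, and 42 of the 44 orange genes lie at the upper left, lower in set 1 and higher in set 2.

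The plot of the differences in both sets spreads further along the vertical axis. The SD of the differences over genes was 0.316 in set 1 and 0.538 in set 2. In set 1, 103 genes were over 2-fold higher and 65 of them were higher by any amount in set 2. In set 2, 484 genes were over 2-fold higher and 289 of them were higher by any amount in set 1. Among genes over 2-fold lower, 111 of 233 in set 1 and 274 of 385 in set 2 were lower in the other set as well. Of all 19120 genes, 12360 were higher by any amount in set 1 and 9143 in set 2, and the rest were lower. The 289 of 484 were thus a smaller share than that of all genes higher in set 1. The 65 of 103 were a larger share than that of all genes higher in set 2. For genes over 2-fold lower, the 111 of 233 were a smaller share than that of all genes lower in set 2. The 274 of 385 were a larger share than that of all genes lower in set 1. Across the 19120 genes, which share the same 4 arrays and are not independent, Pearson's r of the 2 differences was 0.198 and Spearman's rho was 0.317.

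Serpinb2, Il1b and Tnf, the markers of the comparison, were higher with Ecrg4(133-148) than with PBS in both sets. Serpinb2 encodes an inhibitor of plasminogen activators, and Il1b and Tnf encode the cytokines interleukin-1 beta and tumour necrosis factor. Serpinb2 had levels of 3.47 and 4.09 with Ecrg4(133-148), 1.89 and 1.45 with Fc, against 1.25 and 1.21 with PBS. Both Ecrg4(133-148) arrays lay above every Fc and PBS array, and the PBS duplicates lay close together. The mean difference from PBS was 2.55 (SE 0.35, 95% interval 1.64 to 3.47), with 2.22 and 2.88 in the sets (limma, adjusted p = 0.528).

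Il1b had levels of 3.33 and 6.40 with Ecrg4(133-148), 2.66 and 2.62 with Fc, against 1.68 and 0.93 with PBS. The set 2 array with Ecrg4(133-148) was the highest of the 6, and the groups with Ecrg4(133-148) and PBS did not overlap. The mean difference was 3.56 (SE 1.13, 95% interval 0.58 to 6.54), from 1.65 in set 1 and 5.47 in set 2 (limma, adjusted p = 0.539). Tnf had levels of 4.69 and 5.62 with Ecrg4(133-148), 4.32 and 3.19 with Fc, against 3.32 and 1.74 with PBS. It too was higher on both Ecrg4(133-148) arrays than on either PBS array, and its PBS level was lower in set 2. The mean difference was 2.63 (SE 0.82, 95% interval 0.46 to 4.79), from 1.38 and 3.88 in the sets (limma, adjusted p = 0.539). Without the PBS array of set 2 the mean difference was 2.20 for Il1b and 1.66 for Tnf. An interval for a single gene is not adjusted for the number of genes tested.

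The same direction and a larger difference in set 2 were seen for most of the genes ranked highest in both sets. The 10 symbols with the largest difference in the weaker set, with signal well above background on each of the 4 arrays, were Serpinb2, Il1b, Ch25h, Cxcl2, Tnf, Il1a, Cxcl3, Flrt3, Il6 and Acod1, and in 9 of the 10 the groups did not overlap (11.5% of all genes had Ecrg4(133-148) above PBS without overlap). The choice of these genes by their differences largely fixes that count, and Acod1 was the exception. Of all 25 genes over 2-fold higher in both sets, 20 had the larger difference in set 2. The 25 were dim as a group: 10 were well above background on all 4 arrays, and in 9 neither PBS array was.

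**Figure D2:**
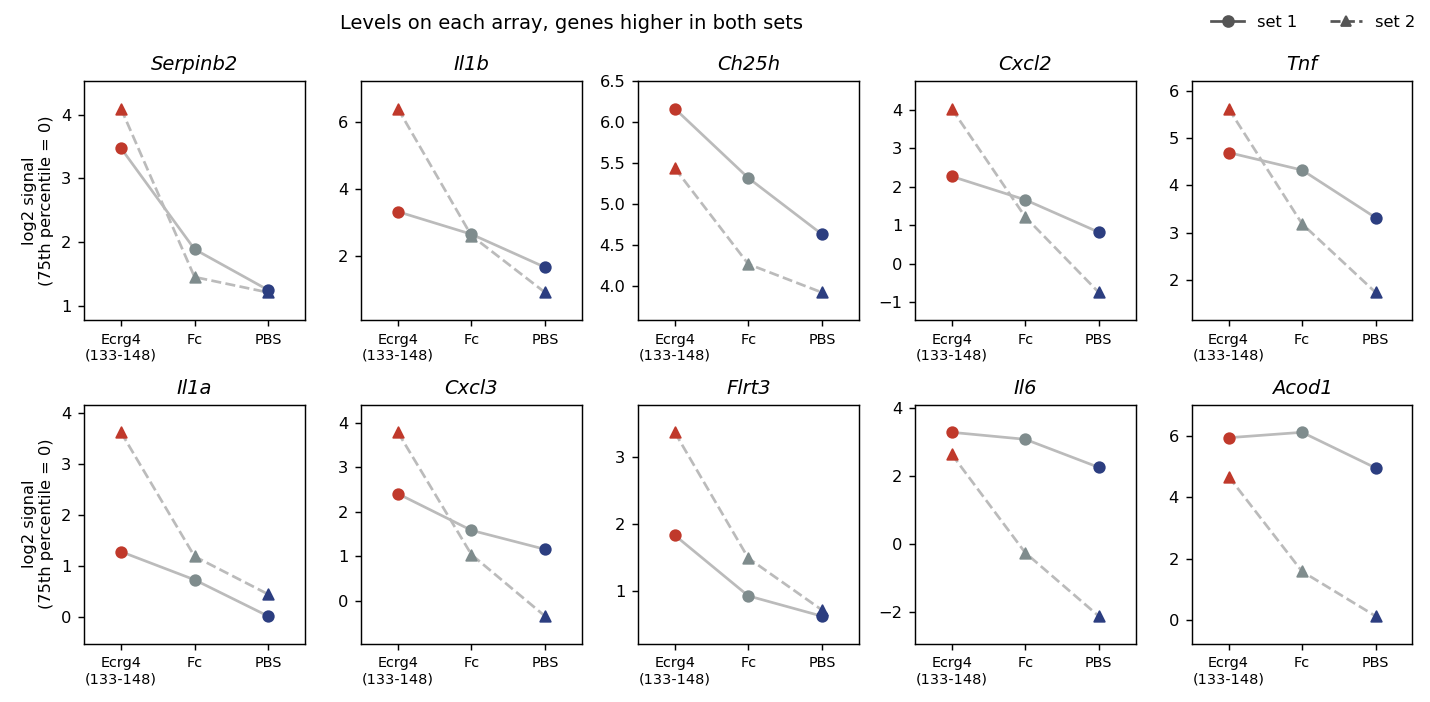
Levels of the 10 genes (log2 signal, 75th percentile of the array at 0, each panel with its own vertical range) with Ecrg4(133-148), Fc and PBS, as circles joined by a solid line for set 1 and triangles joined by a dashed line for set 2. In every panel the Ecrg4(133-148) point lies above the PBS point of its set, and the Fc point lies between them except for Acod1 in set 1.

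Ch25h, which makes the signalling oxysterol 25-hydroxycholesterol, differed by nearly the same amount in both sets. Its levels were 6.17 and 5.44 with Ecrg4(133-148), against 4.63 and 3.92 with PBS, a difference of 1.54 and 1.52. The chemokine genes Cxcl2 and Cxcl3, whose products draw neutrophils, were lower with PBS in set 2 than in set 1 and higher with Ecrg4(133-148) in set 2. Cxcl2 stood at 2.27 and 4.03 with Ecrg4(133-148), against 0.81 and -0.75 with PBS, and Cxcl3 stood at 2.41 and 3.78 with Ecrg4(133-148), against 1.16 and -0.34 with PBS. Il1a, the gene of interleukin-1 alpha, had 1.28 and 3.63 with Ecrg4(133-148), against 0.01 and 0.44 with PBS. Flrt3, a gene of a leucine-rich repeat adhesion protein, had 1.83 and 3.37 with Ecrg4(133-148), against 0.62 and 0.71 with PBS. For these 4 genes the set 2 difference was 4.78, 4.12, 3.18 and 2.65 in that order, and each was over 1 in set 1.

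Il6 and Acod1 showed a different layout, in which the set 1 levels were high in every group. Il6, the gene of interleukin-6, stood at 3.30 and 2.65 with Ecrg4(133-148), against 2.26 and -2.11 with PBS, and the set 2 PBS array was the lowest of the 4. Acod1, whose enzyme makes itaconate in activated macrophages, stood at 5.94 and 4.68 with Ecrg4(133-148), against 4.96 and 0.13 with PBS. Its set 1 PBS level was above its set 2 Ecrg4(133-148) level, so the groups overlapped although the difference was 0.99 and 4.55.

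The bases before the transcript starts of 4 of these genes are shown because NF-kB and AP-1 are the factors best known for switching on such genes. The sequences are from RefSeq on GRCm38.p6, the first listed window of each gene, 250 bases ending at the base before the start, 5′ to 3′ on the strand of the gene, with matches in capitals. The windows are chr1:107511173-107511422, plus strand for Serpinb2, chr2:129371140-129371389, minus strand for Il1b, chr17:35202008-35202257, minus strand for Tnf and chr5:90903649-90903898, plus strand for Cxcl2.
Serpinb2: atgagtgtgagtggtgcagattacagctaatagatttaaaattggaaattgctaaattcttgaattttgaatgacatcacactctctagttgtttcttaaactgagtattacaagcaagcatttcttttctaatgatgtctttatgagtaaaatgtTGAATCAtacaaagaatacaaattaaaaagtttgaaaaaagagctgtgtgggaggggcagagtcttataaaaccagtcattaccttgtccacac
Il1b: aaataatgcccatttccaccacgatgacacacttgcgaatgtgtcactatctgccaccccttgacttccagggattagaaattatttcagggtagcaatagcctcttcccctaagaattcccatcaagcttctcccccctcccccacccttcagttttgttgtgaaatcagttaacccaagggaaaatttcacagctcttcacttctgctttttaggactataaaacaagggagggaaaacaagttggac
Tnf: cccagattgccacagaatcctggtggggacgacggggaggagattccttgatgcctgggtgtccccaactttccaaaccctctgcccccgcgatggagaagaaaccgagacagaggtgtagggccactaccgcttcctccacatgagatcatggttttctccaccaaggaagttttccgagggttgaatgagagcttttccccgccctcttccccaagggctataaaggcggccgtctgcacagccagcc
Cxcl2: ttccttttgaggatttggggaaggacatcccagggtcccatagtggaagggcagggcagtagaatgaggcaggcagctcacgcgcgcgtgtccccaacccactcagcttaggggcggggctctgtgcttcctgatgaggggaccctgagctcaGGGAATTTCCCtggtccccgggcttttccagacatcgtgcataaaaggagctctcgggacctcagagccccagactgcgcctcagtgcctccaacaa
Both strands were searched for the NF-kB consensus of 10 letters and for the AP-1 motif TGANTCA. Serpinb2 holds an AP-1 match, Cxcl2 holds 2 overlapping NF-kB matches, and neither motif was found in these windows of Il1b and Tnf. Of the 10 genes, 3 held an NF-kB match (Cxcl2, Cxcl3 and Il6) and 3 an AP-1 match (Serpinb2, Il1a and Il6). A gene was counted if any of its windows held a match. Of 6 searched genes that were lower in set 1 and higher in set 2, 1 (Ndrg2) held an NF-kB match and none an AP-1 match. Of 32851 windows of the same length, counted singly, 3.9% held the NF-kB consensus and 6.7% the AP-1 motif. A match is a match of letters and does not show that a factor binds there.

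Among pro-inflammatory cytokine genes, 10 of 15 measured were higher in both sets and 2 were lower in both, against 36.3% and 23.8% of all genes. The median difference was 0.37 and 1.92, where the median over all genes was 0.07 and -0.01. None passed over all genes, and 4 had an unadjusted p under 0.05 (9.15% of all genes did). With normexp and its offset of 50 the medians were 0.26 and 1.21. Tnfsf15 and Tnfsf9, members of the tumour necrosis factor family, differed by 0.74 and 2.90 and by 0.59 and 1.92. Csf2 and Csf3, the genes of the growth factors GM-CSF and G-CSF, stood apart in set 2 alone. Csf2 had -4.63 and -1.98 with Ecrg4(133-148), against -4.58 and -6.27 with PBS, and Csf3 had -4.45 and -1.99 with Ecrg4(133-148), against -4.82 and -5.39 with PBS. On the set 2 PBS array neither was well above background, so the set 2 differences of 4.29 and 3.40 have uncertain size.

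Ifnb1, the interferon beta gene, had the smallest unadjusted p among the genes with a symbol that were higher. Its levels were -1.64 and -4.75 with Ecrg4(133-148), against -3.64 and -6.09 with PBS. In set 1 both arrays were well above background and differed by 2.001, while in set 2 neither was. Il33, the gene of an alarm cytokine, was lower in both sets, with differences of -0.83 and -0.50. Il18 and Il27 differed by -0.09 and -0.16 and by 0.02 and -0.02.

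Among chemokine genes, 11 of 20 measured were higher in both sets, 1 was lower in both and 8 went opposite ways, against 36.3%, 23.8% and 39.9% of all genes, and the median difference was 0.36 and 0.82. When arrays were scaled to their medians 13 of the 20 were higher in both sets, near the 62.6% of all genes. Ccl3, which encodes a chemokine for monocytes and lymphocytes, was bright and differed by 0.87 and 0.90. Its levels were 7.22 and 7.62 with Ecrg4(133-148), against 6.35 and 6.72 with PBS. The groups did not overlap, and the mean difference was 0.88 (SE 0.09; limma, adjusted p = 0.528). Its neighbour in function Ccl4 had 7.62 and 7.12 with Ecrg4(133-148), against 6.80 and 5.98 with PBS, and the monocyte chemoattractant genes Ccl2 and Ccl7 differed by 0.87 and 0.72 and by 1.36 and 0.80. Cxcl10, an interferon-inducible chemokine gene, had 6.33 and 1.38 with Ecrg4(133-148), against 5.35 and -0.48 with PBS, so that its sets lay further apart than its treatments. Ccl6, the brightest member, differed by 0.09 and -0.01. Cxcl1 went over 2-fold opposite ways, at -1.98 and -2.66 with Ecrg4(133-148), against -0.55 and -6.37 with PBS, with the set 2 PBS array not well above background.

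In the NF-kB pathway list, 26 of 28 measured genes were higher in both sets, against 36.3% of all genes, and none was lower in both. The median difference was 0.29 and 1.29, and 23 of the 28 differed more in set 2. All 28 were well above background on the 4 arrays, and in 17 the groups did not overlap, with Ecrg4(133-148) above PBS (11.5% of all genes). With median scaling all 28 were higher in both sets, against 62.6% of all genes. None passed over all genes, and 4 had an unadjusted p under 0.05 (9.15% of all genes did). Among the inhibitors, Nfkbia, which encodes the inhibitor IkB alpha, had 6.83 and 6.99 with Ecrg4(133-148), against 6.36 and 5.31 with PBS. Its PBS arrays were below both Ecrg4(133-148) arrays. The genes of the other inhibitors Nfkbie and Nfkbiz differed by 0.34 and 2.48 and by 0.44 and 2.35, and that of the ubiquitin-editing brake Tnfaip3 by 0.49 and 1.99.

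The subunit genes differed less in set 1. Rela, the main activating subunit, differed by 0.10 and 0.38, Nfkb1 by 0.36 and 1.21 and Nfkb2 by 0.18 and 1.52. Relb was the member without a difference in set 1, where it differed by -0.0016 against 1.47 in set 2. Of the downstream genes, Traf1, an adaptor of tumour necrosis factor receptors, had 0.92 and -0.31 with Ecrg4(133-148), against 0.25 and -3.11 with PBS, and Cflar, an inhibitor of death receptor signalling, had 1.72 and 2.63 with Ecrg4(133-148), against 1.06 and 1.07 with PBS. The adhesion gene Icam1 differed by 0.45 and 1.99. Ripk1, a kinase of the receptor complex, differed by 0.08 and -0.04. Cd40, a co-stimulatory receptor gene, had 0.36 and -0.62 with Ecrg4(133-148), 0.86 and -0.38 with Fc, against 0.03 and -3.84 with PBS, and its Fc level in set 2 matched its Ecrg4(133-148) level more closely than its PBS level.

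**Figure D3:**
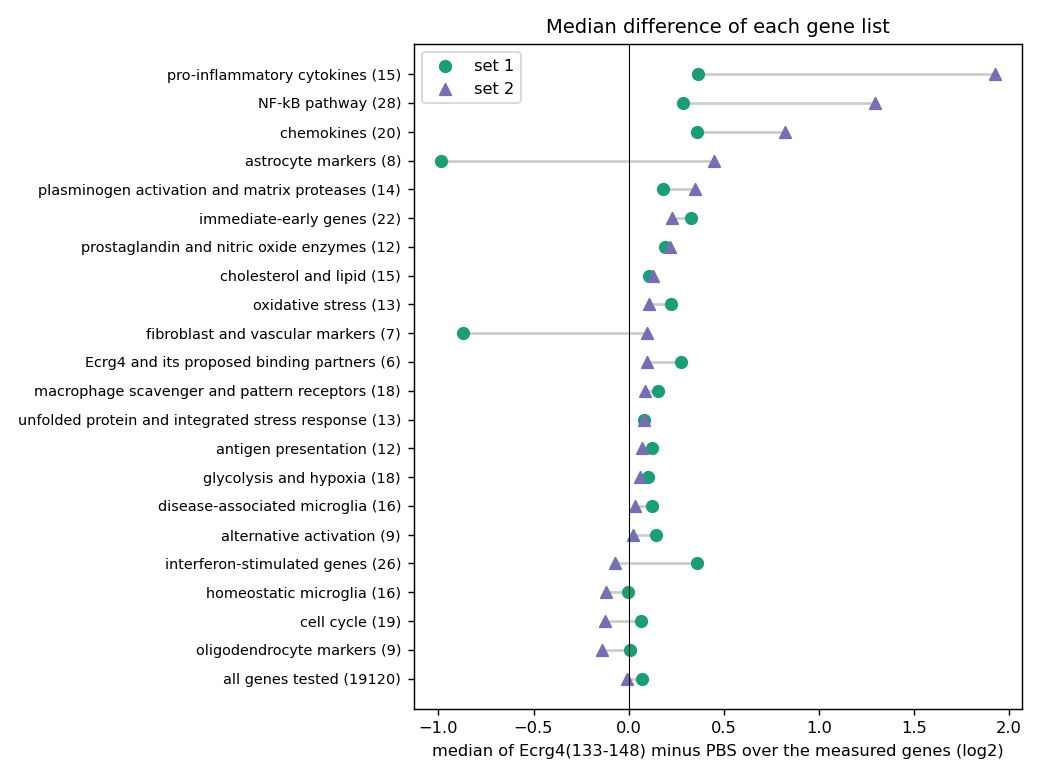
Median difference Ecrg4(133-148) minus PBS (log2) over the measured genes of each list, with a circle for set 1, a triangle for set 2 and the number of measured genes in brackets. The cytokine, NF-kB and chemokine lists lie furthest to the right in set 2. They and most other lists lie to the right of all genes tested in both sets, the interferon-stimulated list only in set 1. The astrocyte and fibroblast lists lie at -0.98 and -0.87 in set 1 and above 0 in set 2.

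All 26 measured interferon-stimulated genes were higher with Ecrg4(133-148) than with PBS in set 1, but only 10 were also higher in set 2, and 16 went opposite ways (39.9% of all genes did). The median difference was 0.36 and -0.07, and the set 2 median became 0.06 when arrays were scaled to their medians, where the median of all genes was 0.12. With that scaling 16 of the 26 were higher in both sets and 10 went opposite ways, against 62.6% and 27.4% of all genes. In set 1 all 26 were higher with Fc than with PBS and all 26 were lower with Ecrg4(133-148) than with Fc. Of all 19120 genes, 13384 were higher with Fc than with PBS in set 1 and 10135 higher with Ecrg4(133-148) than with Fc. In set 2 only 1 of the 26 was higher with Fc than with PBS and 25 were higher with Ecrg4(133-148) than with Fc. Of all 19120 genes, 10118 and 8580 were so, in that order. Ifit1, an antiviral effector gene, had 2.47 and -0.96 with Ecrg4(133-148), 3.09 and -2.05 with Fc, against 1.90 and -1.50 with PBS. Rsad2, which encodes the antiviral enzyme viperin, had 3.68 and 0.34 with Ecrg4(133-148), 4.42 and -0.59 with Fc, against 3.20 and -0.08 with PBS. In both genes Fc gave the highest of these 3 levels in set 1 and the lowest in set 2. Gbp5, a guanylate-binding protein gene, differed from PBS by 0.44 and 1.40, while Oas3, an antiviral sensor gene, differed by 0.53 and -0.77. No member had an unadjusted p under 0.05.

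The total difference from PBS is the sum of the difference between Fc and PBS and the difference between Ecrg4(133-148) and Fc, which share the Fc arrays with opposite sign. For Serpinb2 the carrier step was small: Fc minus PBS was 0.64 and 0.24, and Ecrg4(133-148) minus Fc was 1.59 and 2.64. For Il1b the carrier step was 0.98 and 1.69 and the fragment step 0.67 and 3.78, so the carrier step was the larger in set 1 and the fragment step in set 2. Tnf showed the same order, with 1.01 and 1.45 for the carrier step and 0.37 and 2.43 for the fragment step. Il6 had 0.83 and 1.87 for the carrier step and 0.21 and 2.90 for the fragment step. In Acod1 the set 1 fragment step was below 0, at -0.18, beside a carrier step of 1.16. No gene passed for Fc minus PBS (0% of genes) or for Ecrg4(133-148) minus Fc (0%) in limma with the set as a block.

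**Figure D4:**
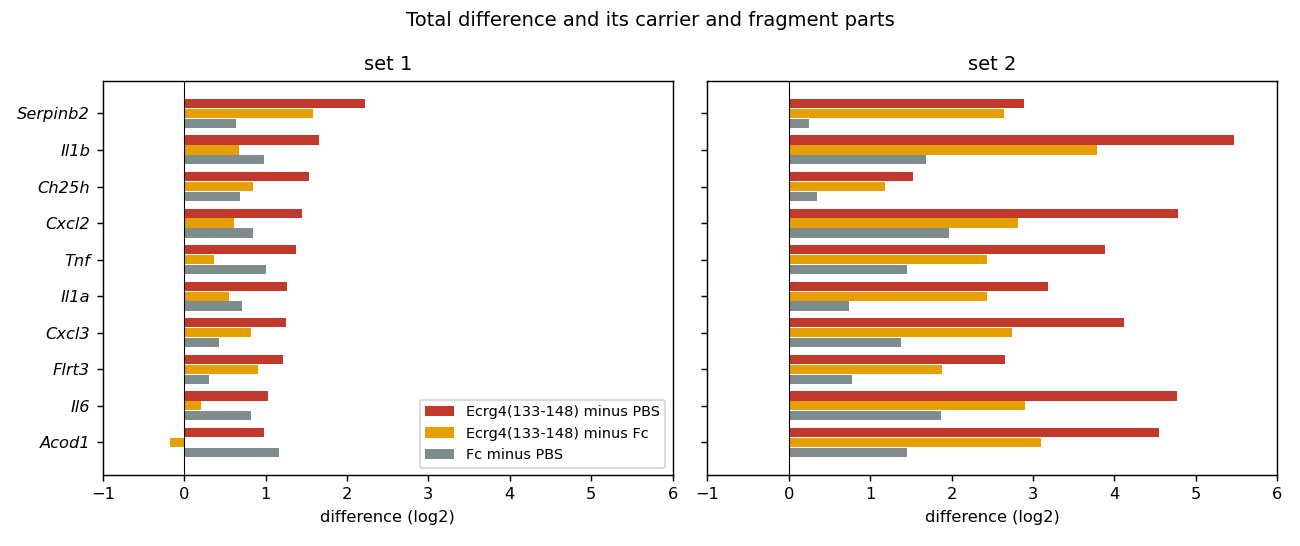
Differences (log2) for the 10 genes highest in both sets, with set 1 on the left and set 2 on the right. Red bars are Ecrg4(133-148) minus PBS, orange bars Ecrg4(133-148) minus Fc and grey bars Fc minus PBS, and each red bar is the sum of the other two. Acod1 in set 1 is the one orange bar below 0.

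For cytokine genes the median carrier step was 0.30 and 0.44 and the median fragment step 0.09 and 1.45. For NF-kB genes the carrier step was 0.28 and 0.47 and the fragment step 0.02 and 0.59. In set 1 all 28 NF-kB genes were higher with Fc than with PBS, and 17 were higher with Ecrg4(133-148) than with Fc. Of all 19120 genes, 13384 and 10135 were so, in that order. In set 2, 24 of the 28 were higher with Fc than with PBS, and 27 were higher with Ecrg4(133-148) than with Fc. Of all 19120 genes, 10118 and 8580 were so, in that order. For immediate-early genes the carrier step was -0.04 and 0.05 and the fragment step 0.20 and 0.18. Over all genes the medians were 0.06 and 0.01 for the carrier step and 0.01 and -0.02 for the fragment step.

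Enzymes of inflammatory mediators differed from PBS in few members. Of 12 measured genes for prostaglandin, nitric oxide and related enzymes, 7 were higher in both sets and none was lower in both. Of all genes, 36.3% and 23.8% were so. The median of the 12 was 0.19 and 0.22. Ptgs2, the inducible cyclooxygenase gene, had 1.65 and 1.58 with Ecrg4(133-148), 1.15 and -2.83 with Fc, against 1.12 and -3.91 with PBS. The set 2 PBS and Fc arrays were far below the other 4. Gch1, whose enzyme makes the cofactor of nitric oxide synthases, differed by 0.48 and 0.94, and Nos2, whose enzyme makes nitric oxide in activated macrophages, by 0.19 and 0.33. Ptgs1, Ptges and Arg1 differed by 0.05 and -0.24, by 0.07 and 0.03 and by 0.19 and -0.07.

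Apart from Serpinb2, no measured gene of plasminogen activation and matrix proteases was over 2-fold higher or over 2-fold lower in both sets. Of 14 measured, 5 were higher in both sets, 1 was lower in both and 8 went opposite ways, against 36.3%, 23.8% and 39.9% of all genes. The median was 0.18 and 0.35, and 3 of the 14 had an unadjusted p under 0.05 in limma (9.15% of all genes did). Plaur, the gene of the receptor that holds urokinase on the cell surface, had 6.09 and 7.15 with Ecrg4(133-148), against 5.39 and 6.73 with PBS, a difference of 0.70 and 0.42. Mmp13, a collagenase gene, differed by 0.87 and 0.31. Plau, the urokinase gene, differed by 0.51 and -0.38, and Mmp3, the stromelysin gene, by -0.98 and 2.77, with the set 2 PBS array not well above background for Mmp3.

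Immediate-early genes respond to signals before new protein is made. Of 22 measured, 14 were higher in both sets and 3 lower in both, against 36.3% and 23.8% of all genes. The median was 0.33 and 0.23. Fosl1, an AP-1 subunit gene, had -0.28 and -2.31 with Ecrg4(133-148), against -0.99 and -3.78 with PBS. Its fragment step was 1.18 and 1.04 and its carrier step -0.46 and 0.43. Ier3, Junb and Dusp2, a survival gene, an AP-1 gene and a phosphatase gene, differed by 0.47 and 1.61, by 0.43 and 1.20 and by 0.51 and 0.98. Fos and Nr4a2 were lower in both sets, with differences of -0.28 and -0.17 and of -0.70 and -0.16. In all, 6 of the 22 had an unadjusted p under 0.05, against 9.15% of all genes, and none passed.

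A list of 8 genes held Ecrg4 and genes of surface proteins proposed to bind it or its receptors, and 6 were measured. Ecrg4 itself and Scarf1 did not pass the filter on dim probes. Olr1, the gene of the scavenger receptor LOX-1, had 2.69 and 5.67 with Ecrg4(133-148), against 1.80 and 4.15 with PBS. Both sets differed, by 0.89 and 1.52, although the set 1 Ecrg4(133-148) level was below the set 2 PBS level. Cd14, the gene of a co-receptor of Tlr4, had 5.58 and 5.15 with Ecrg4(133-148), against 5.20 and 3.73 with PBS. Tlr4 differed by 0.18 and 0.11, its partner Ly96 by 0.12 and -0.07, and the scavenger receptor genes Cd36 and Stab1 by 0.39 and 0.08 and by 0.14 and 0.01. Of 18 pattern and scavenger receptor genes, 11 were higher in both sets and none was lower in both, against 36.3% and 23.8% of all genes. Their median was 0.16 and 0.09. Tlr2, the receptor gene for bacterial lipoproteins, differed by 0.04 and 1.59. The Fc receptor genes Fcgr1 and Fcgr2b differed by 0.02 and -0.86 and by 0.22 and 0.18.

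Genes of resting microglia mostly differed little. Of 16 measured, 2 were higher in both sets and 7 lower in both, against 36.3% and 23.8% of all genes. The median of -0.01 and -0.12 became 0.11 and 0.02 when arrays were scaled to their medians. With that scaling 9 were higher in both sets and 1 was lower in both, against 62.6% and 10% of all genes. Gpr34, a lysophospholipid receptor gene, was the 1 member of 16 with non-overlapping groups (6.08% of all genes had Ecrg4(133-148) below PBS without overlap). Its levels were 0.65 and -0.12 with Ecrg4(133-148), 1.16 and 0.97 with Fc, against 1.34 and 1.003 with PBS. Ecrg4(133-148) gave the lowest of these 3 levels in each set, with differences of -0.68 and -1.13 from PBS (limma, adjusted p = 0.528). P2ry12, a purine receptor gene, differed by -0.12 and -0.42, and Siglech by -0.03 and -0.02. Cx3cr1 differed by 0.12 and 1.80.

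The 41 genes over 2-fold lower in both sets were mostly dim. Their median level over the 4 arrays was -3.74, where the median of all genes was 0.70, and 3 of the 41 (Plekhb1, Dbp and C1s2) were well above background on all 4. On the set 2 Ecrg4(133-148) array 36 were not well above background, so their set 2 differences are not measured sizes. Plekhb1, a gene of a membrane-associated pleckstrin homology protein, had 0.41 and -2.96 with Ecrg4(133-148), 0.45 and -4.30 with Fc, against 1.84 and -1.01 with PBS. Dbp, a clock-controlled transcription factor gene, had 0.03 and -0.02 with Ecrg4(133-148), 0.42 and 1.15 with Fc, against 1.09 and 1.46 with PBS. In Dbp both Ecrg4(133-148) arrays were below all Fc and PBS arrays, and in Plekhb1 the Fc level lay near the Ecrg4(133-148) level in set 1 and below it in set 2. C1s2, a complement protease gene, had -2.81 and -3.18 with Ecrg4(133-148), against -1.78 and -1.52 with PBS. With normexp background correction and its offset of 50 the count of 41 became 2, and with normexp and no offset it became 16.

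Where every Ecrg4(133-148) array was below background only a rough bound could be given. It is the PBS mean over the higher of the dimmest signal well above background and the measured signal. On that basis the bound for Clip4 was 5.82-fold lower with Ecrg4(133-148) (adjusted p = 0.546 in limma). For Npy1r, a neuropeptide Y receptor gene, it was 3.39-fold lower (adjusted p = 0.539 in limma). Some signals above that dimmest level were also not well above background, so neither value is a strict minimum. Ptgds, the prostaglandin D2 synthase gene, had -1.92 and -6.09 with Ecrg4(133-148), -1.65 and -5.96 with Fc, against 0.30 and -2.67 with PBS. Its Fc levels lay close to its Ecrg4(133-148) levels in both sets, and the set 2 Ecrg4(133-148) array was not well above background. Clip4, Npy1r and Ptgds were chosen after their values were seen. The other 7 of the 10 symbols lowest in both sets, with signal well above background on each of the 4 arrays, were Riiad1, Dchs1, Coq8a, Klhl24, Ikzf2, Kifc2 and Fgfr3, each under 2-fold in at least 1 set. In 4 of the 10 the groups did not overlap (6.08% of all genes had Ecrg4(133-148) below PBS without overlap), a count that the choice of genes also bears on.

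Frat1, the gene of an inhibitor of the kinase GSK3, had the smallest unadjusted p among genes with a symbol that were lower. It stood at -2.54 and -2.55 with Ecrg4(133-148), against -1.77 and -1.54 with PBS, and its mean difference was -0.89 (SE 0.09; limma, adjusted p = 0.528). The groups did not overlap. Ikzf4 and Cdo1, a zinc finger transcription factor gene and the cysteine dioxygenase gene, followed with -0.69 and -0.88 and -0.76 and -0.70, and for both the set 2 Ecrg4(133-148) array was not well above background. Rrs1, a ribosome assembly gene, was the third symbol by smallest p in the other direction, after Ifnb1 and Ccl3. Its levels were 3.29 and 3.63 with Ecrg4(133-148), against 2.75 and 3.03 with PBS.

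Of the 44 genes that went over 2-fold opposite ways, 42 were lower in set 1 and higher in set 2, and 2 ran the other way. They were chosen by their differences from PBS, so the order of Ecrg4(133-148) and PBS in each set is given by the choice, and differences of Fc from the same PBS arrays share it. Over these 42 the median level was -0.43 with Ecrg4(133-148), -0.43 with Fc and 0.66 with PBS in set 1, and -2.67, -4.38 and -5.27 in the same order in set 2. In set 1 the PBS array was the highest of all 4 set 1 arrays for 40 of the 42, and in set 2 the Ecrg4(133-148) array was the highest for 29. The median differences from PBS were -1.18 in set 1 and 1.94 in set 2, with ranges of -1.69 to -1.001 and 1.04 to 5.74. In set 1 the Fc array was over 2-fold below PBS in 24 of the 42, and in set 2 it was over 2-fold above PBS in 9. The median carrier step was -1.02 and 0.40, and the median fragment step -0.20 and 1.66.

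The differences of this group set a middling level in set 1 against a dim one in set 2. The median PBS level of the 42 was 0.66 in set 1, near the 0.72 of all genes. In set 2 it was -5.27, where that of all genes was 0.74. The PBS level was higher in set 1 than in set 2 for 41 of the 42, and over all 44 the set 2 PBS array was not well above background for 32. Of the 44, 10 were well above background on all 4 arrays. With normexp and its offset of 50, 11 genes went over 2-fold opposite ways, and with normexp and no offset 21 did. With median scaling 32 did. The difference between the sets was not tested, since each set holds 1 array per treatment.

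Clu, which encodes the secreted chaperone clusterin, had 3.46 and -0.36 with Ecrg4(133-148), 3.48 and -2.76 with Fc, against 4.66 and -2.66 with PBS. Cpe, whose carboxypeptidase processes neuropeptides, had 4.14 and 0.30 with Ecrg4(133-148), 4.17 and -1.97 with Fc, against 5.31 and -2.20 with PBS. In set 1 the Ecrg4(133-148) and Fc arrays lay together below PBS, and in set 2 the Fc and PBS arrays lay together below Ecrg4(133-148). Sparc, a matrix glycoprotein gene, showed a like layout at 5.50 and 1.44 with Ecrg4(133-148), 5.81 and -1.14 with Fc, against 6.46 and -1.16 with PBS. Another Sparc probe gave differences of -0.22 and -0.14, so the 2 probes of this gene disagreed.

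**Figure D5:**
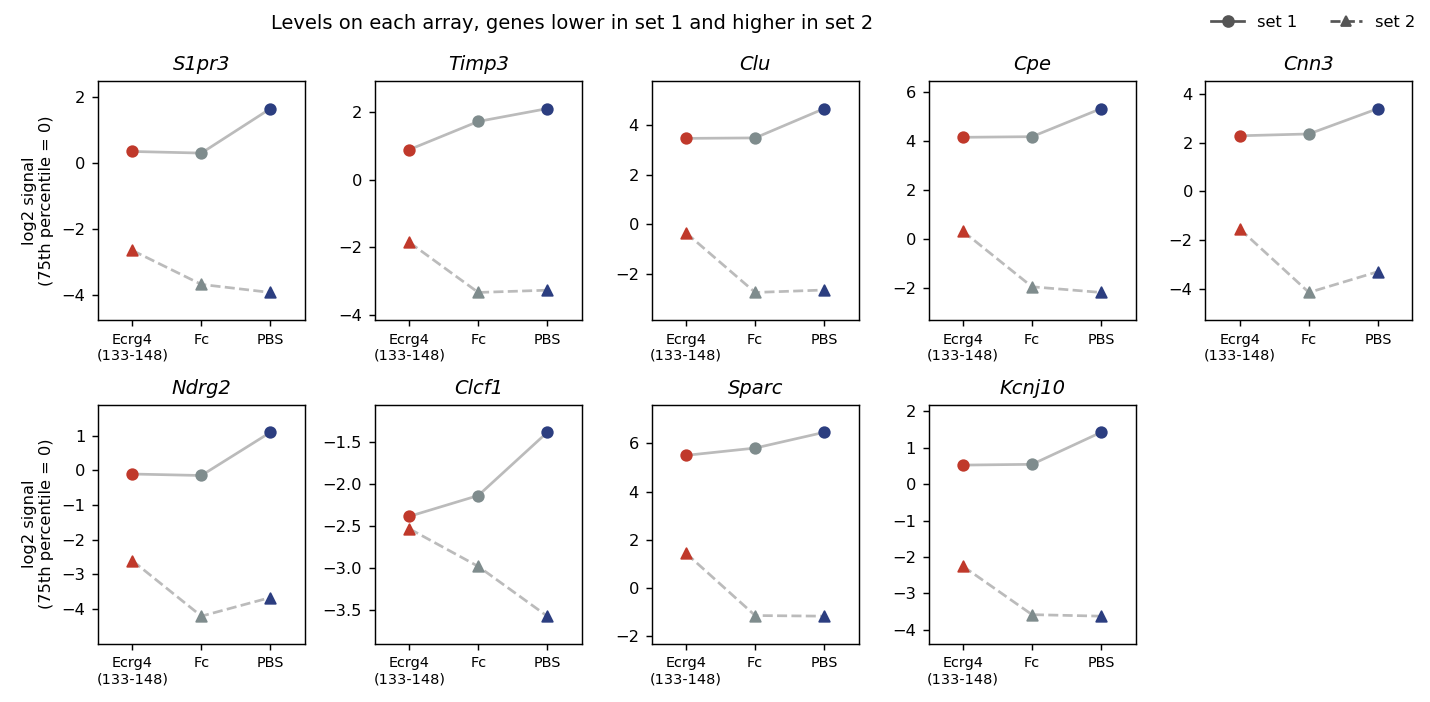
Levels (log2 signal, 75th percentile of the array at 0, each panel with its own vertical range) of 9 symbols that were lower in set 1 and higher in set 2 by the largest amounts in their weaker set, with Ecrg4(133-148), Fc and PBS, as circles and solid lines for set 1 and triangles and dashed lines for set 2. In every panel PBS is the highest point of set 1 and Ecrg4(133-148) the highest point of set 2, and set 1 lies above set 2 in all panels for PBS.

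The other 6 of these 9 symbols, which exceeded background clearly on each of the 4 arrays, were S1pr3, Timp3, Cnn3, Ndrg2, Clcf1 and Kcnj10, and in all 9 the 2 groups overlapped. S1pr3, a receptor of sphingosine 1-phosphate, had 0.34 and -2.65 with Ecrg4(133-148), against 1.64 and -3.92 with PBS. Timp3, an inhibitor of matrix proteases, had 0.89 and -1.86 with Ecrg4(133-148), against 2.11 and -3.28 with PBS, and Kcnj10, a glial potassium channel gene, had 0.53 and -2.26 with Ecrg4(133-148), against 1.43 and -3.63 with PBS. Cnn3, an actin-binding calponin gene, differed by -1.12 and 1.75. Ndrg2, and Clcf1 of the interleukin-6 family of cytokines, differed by -1.20 and 1.06 and by -1.001 and 1.04. The adjusted p-values of the 9 in limma ran from 0.764 to 0.996.

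All 8 measured astrocyte markers were lower with Ecrg4(133-148) than with PBS in set 1, and 4 were higher and 4 lower in set 2. Of all 19120 genes, 12360 were higher in set 1 and 9143 in set 2. The 8 markers had a median of -0.98 and 0.45. Their summed level (log2 of the sum of linear signals) was 4.91 and 6.21 with Ecrg4(133-148), against 5.44 and 6.25 with PBS. Gfap, the astrocyte filament gene, had 1.11 and -3.66 with Ecrg4(133-148), 1.14 and -5.80 with Fc, against 2.43 and -6.23 with PBS. Slc1a3, an astrocyte glutamate transporter gene, had -0.33 and -5.03 with Ecrg4(133-148), against 0.77 and -6.41 with PBS, with neither set 2 array well above background. Aldoc, the brightest marker, differed by -0.30 and -0.03, and Fgfr3 and Slc1a2, lower in both sets, by -0.88 and -1.05 and by -1.10 and -2.21. Of the 8 markers, all were well above background on both set 1 arrays, while 6 with Ecrg4(133-148) and 4 with PBS were so in set 2. The 3 markers well above background on all 4 arrays were lower in both sets, with medians of -0.64 and -0.12.

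Of 7 measured fibroblast and vascular markers, 5 were lower in set 1 and higher in set 2 (2204 of all 19120 genes were). Another 1 was lower in both and 1 was higher in set 1 and lower in set 2. The 7 markers had a median of -0.87 and 0.10. Over the 5 of them well above background on all 4 arrays the medians were -0.06 and 0.07. The summed level of all 7 was 5.27 and 4.84 with Ecrg4(133-148), against 6.09 and 4.93 with PBS. Dcn, the matrix proteoglycan decorin gene, had 2.59 and -2.92 with Ecrg4(133-148), against 3.79 and -4.19 with PBS. The collagen gene Col1a2 had 3.53 and -1.70 with Ecrg4(133-148), against 4.63 and -2.04 with PBS, and Col1a1 differed by -1.01 and 0.54. The vascular genes Kdr and Vwf differed by -0.06 and 0.07 and by -0.06 and -0.15. The 9 measured oligodendrocyte markers had a median of 0.01 and -0.14. The part of other cells in the opposite differences was not tested.

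Other genes of the 44, chosen here after their values were seen, included Mlc1 and Atp1b2, which brain astrocytes are known to express, and the collagen gene Col5a2. Mlc1 had 2.86 and -0.64 with Ecrg4(133-148), 2.87 and -4.58 with Fc, against 4.004 and -6.39 with PBS, the largest set 2 difference of the group at 5.74. Atp1b2, a sodium pump subunit gene, had 1.76 and -2.71 with Ecrg4(133-148), against 2.90 and -6.46 with PBS. Col5a2 had -3.66 and -2.15 with Ecrg4(133-148), against -2.64 and -6.41 with PBS. For all 3 the set 2 PBS array was not well above background. Lif, a cytokine gene, was also among the 44, at -3.92 and -4.69 with Ecrg4(133-148), against -2.77 and -6.05 with PBS, with both set 2 arrays not well above background.

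In the reverse direction, higher in set 1 and lower in set 2, 5421 genes differed by any amount against 2204 for lower in set 1 and higher in set 2, but only 2 passed 2-fold in both sets. These were Fam110b, at -1.79 and -3.94 with Ecrg4(133-148), against -3.40 and -0.95 with PBS, and a probe with no gene symbol. The set 2 Ecrg4(133-148) signal of Fam110b was not well above background. The 10 symbols with the largest reverse differences and clear signal on each of the 4 arrays were Gm16523, Tcaim, Ltb4r2, Uvssa, Hmga2, Grip1, Oas3, Atf7ip2, Epb41l1 and Xrcc3, each under 2-fold in at least 1 set. Hmga2, a chromatin protein gene, had 0.20 and -2.24 with Ecrg4(133-148), against -0.49 and -0.52 with PBS, and Uvssa, a DNA repair gene, had -1.91 and -3.69 with Ecrg4(133-148), against -3.83 and -2.997 with PBS.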

How the data were processed

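RNA of 8 samples, 2 for each of 4 treatments, was measured on one-colour arrays on 1 slide, with the sets in separate columns of it. The scanner files were made with Agilent Feature Extraction, version 11.0.1.1 according to the submitters' processing notes. They were deposited as linear intensities of spots after background subtraction, with flags for outlying, saturated and dim spots. The deposited table holds log2 values that equal the log2 scanner intensity less a constant for each array (correlation 1 on each of the 8 arrays, 100% of probes within 0.1), is not centred by gene and has column medians from -4.48 to -4.21. The origin of that constant is not given here, although the 75th percentile of each column is 0.003 to 0.009. It was used as an alternative.

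From the intensities, log2 signal minus the 75th percentile of each array was computed, outlying spots were left out and spots of a probe averaged. No spot was saturated. Of 55681 probes, 104 had every spot outlying on some array and were left out, 27972 were named through RefSeq accessions in a gene table of GRCm38.p6, and for 27605 the deposited name was kept. A probe was kept (25250 were) where both arrays of some group had it well above background, and its brightest probe stood for each of 19120 genes, 12594 with a symbol. Of these genes, 17647 were well above background on the 4 arrays compared. Means and medians take each signal as measured, also where dim. Among 18 named genes with several such probes, Ctsd, Sparc and Timp2 had probes that disagreed in sign.

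The model in limma 3.58.1 (R 4.3.3) used the 8 arrays, a mean for each group and the set as a block, leaving 3 residual degrees of freedom, with Benjamini-Hochberg adjustment over all genes. The set numbers pair the samples: over genes, the set 2 minus set 1 difference of 1 group correlated with that of another at 0.7831 to 0.8624 (6 pairs of groups). Precision is limited throughout by the small number of arrays. Alternatives covered background correction, scaling, filters, probe rules, the deposited log2 table, moderation, the block and each array left out. The named genes are the 3 markers and the 10 symbols with the largest difference in their weaker set, in each direction and each opposite pattern. For these 10 all 4 signals exceeded background clearly. Named too are the brightest member, 3 leading members and opposite members of each list. The 3 symbols with the smallest p-values each way and the proposed binding partners complete the named genes. Genes that are not reported here were left out of these. Other genes named are list members given as examples after their values were seen. The members and lists were chosen with earlier results of these data known, so no list is independent support for its direction.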

Additional observations from a re-analysis of the deposited data

Results flagged for a closer look

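In 7 of the genes named for going opposite ways, the differences of both sets exceeded 2-fold with opposite signs. The set 2 difference minus the set 1 difference (log2, Ecrg4(133-148) minus PBS) was 2.04 for Clcf1, 3.51 for Clu, 2.87 for Cnn3, 3.67 for Cpe, 2.26 for Ndrg2, 2.56 for S1pr3 and 2.63 for Timp3. The difference between the sets was not tested, since each set has 1 array per treatment. In each of the 7 the PBS level was higher in set 1 than in set 2, and Kcnj10 and Sparc showed the same signs with 1 set under 2-fold.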

How the results depend on the processing

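No gene passed under any alternative (limma), and the mean differences of Il1b, Tnf and Serpinb2 kept their direction. Median scaling turned the sign of 7 list medians of the mean difference, to 0.05 for resting microglia (in place of -0.07), 0.09 for cell cycle (-0.03), 0.0016 for astrocytes (-0.12), 0.02 for fibroblasts (-0.10), and likewise for oligodendrocytes, neurons and other blood cells. Quantile scaling turned 1, unfolded protein, to -0.02 (in place of 0.04), and other blood cells turned without the filter and with the authors' log2 values. The adjusted p-values of Il1b ran from 0.239 with median scaling to 0.99996 without the replicate block. The fit without the replicate block had 186 genes with an unadjusted p under 0.05, against 1749 with it, and median scaling had 3436. Median scaling moved the median difference of all genes to 0.19 and 0.12 in the sets, from 0.07 and -0.01. The counts of genes over 2-fold higher, lower and opposite were then 40, 33 and 32. The counts of genes over 2-fold higher, lower and opposite (25, 41 and 44) became 12, 2 and 11 with normexp, which adds an offset of 50, and the same counts on the same probes. Normexp with no offset gave 16, 16 and 21, and the offset of 50 alone on the scanner signal gave 13, 5 and 11 (normexp on the same probes, with no offset and the offset alone were chosen after seeing the data). They became 10, 2 and 6 for genes well above background on all 8 arrays, 10, 3 and 10 for genes well above background on the 4 arrays compared (likewise chosen after seeing the data), 75, 101 and 192 without a filter on dim probes, and 107, 181 and 145 at 1.5-fold. Quantile scaling gave 30, 37 and 43, the mean of probes 25, 39 and 45, and the authors' log2 values 27, 38 and 40. Leaving out each array in turn with the replicate block gave Il1b differences of 2.20 to 4.92, Tnf differences of 1.66 to 3.59, Serpinb2 differences of 2.31 to 2.80, and 979 to 2699 genes with an unadjusted p under 0.05. A lone array was then assumed to vary like the others. The 3 counts were smaller where dim probes were left out, where the offset was added and with normexp.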

Other observations

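Lists outside inflammation differed by small amounts. Their counts stand beside 36.3% of all genes higher in both sets, 23.8% lower in both and 39.9% opposite ways. With median scaling, which the list counts given here do not use, 62.6% of all genes were higher in both sets. Of 13 oxidative stress genes, 8 were higher in both sets and none was lower in both, with a median difference of 0.22 and 0.11. Slc7a11, the cystine transporter gene, had 1.68 and 2.58 with Ecrg4(133-148), against 0.91 and 1.17 with PBS, and the groups did not overlap. Hmox1, the heme oxygenase gene, had 8.06 and 7.48 with Ecrg4(133-148), against 7.61 and 6.78 with PBS, a difference of 0.45 and 0.70, and Sod2, the mitochondrial superoxide dismutase gene, differed by 0.29 and 0.70. Of 18 glycolysis and hypoxia genes, 13 were higher in both sets and 3 lower in both (median 0.10 and 0.06). Slc2a1, the glucose transporter gene, had 5.52 and 5.23 with Ecrg4(133-148), against 4.99 and 4.56 with PBS without overlap of the groups, while Vegfa was lower in both sets, with differences of -0.31 and -0.22.

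Of 13 genes of the unfolded protein and integrated stress response, 7 were higher in both sets and none was lower in both (median 0.08 and 0.08). Herpud1, a gene of protein degradation at the endoplasmic reticulum, differed by 0.42 and 0.93, and Atf4 by 0.05 and 0.03. Cholesterol and lipid genes had a median of 0.11 and 0.13. Of 9 alternative activation genes, 6 were higher in both sets. Il1rn, the gene of the interleukin-1 receptor antagonist, had 1.11 and 2.77 with Ecrg4(133-148), against -0.47 and 2.15 with PBS, and Socs3, a feedback inhibitor of cytokine signalling, had 4.48 and 5.63 with Ecrg4(133-148), against 4.14 and 3.71 with PBS. In Il1rn the difference was larger in set 1, unlike in Il1b. Of 16 disease-associated microglia genes, 12 were higher in both sets, with a median of 0.12 and 0.03, and of 12 antigen presentation genes 7 were, with a median of 0.13 and 0.07. Of 19 cell cycle genes 12 went opposite ways (39.9% of all genes did), with a median of 0.06 and -0.12. The 4 measured markers of other blood cells had a median of -0.05 and 0.07 and the 2 neuron markers -0.06 and -0.01. No gene of these lists passed over all genes (limma, set as a block). The medians of the unfolded protein, cell cycle, oligodendrocyte, neuron and other blood cell lists changed sign in at least 1 set under some scaling. With quantile scaling the median of the mean difference was 0.004 for glycolysis and hypoxia and 0.008 for disease-associated microglia. It was 0.013 for alternative activation and 0.004 for all genes.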
